A study of Arabidopsis thaliana with 18 samples.

Results

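The NAC family of transcription factors was examined across 18 Affymetrix arrays of whole Arabidopsis thaliana seedlings. The description of a probe set (the group of probes that reads 1 transcript) had to contain NAM, NAC domain, NAC1, NAC2, ATAF or no apical meristem, and 69 of 22746 probe sets met this. In 7 of them the letters belong to another word or to a sequence identifier, as in DNA2-NAM7 helicase, so 62 probe sets described as NAC or NAM proteins are called the NAC members here, a choice made from the descriptions and not from the signals. Seedlings, grown at 22 °C on MS medium of 0.5 strength with 1% sucrose, were harvested at an age of 7 days. They were heat-shocked at 37 °C for 1 h, treated with 150 mM NaCl for 6 h, or kept at 22 °C as the control. The genotypes were HSFA6b-OE (OE), which overexpresses the heat shock transcription factor HSFA6b, HSFA6b-RD (RD), described as a dominant-negative mutant line of the same factor, and wild-type Col-0 (WT). Each of the 9 groups held 2 independent biological replicates. The promoter of the OE transgene and the number of lines per genotype are not given in the sources used here.

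NAC proteins are plant-specific transcription factors that share a DNA-binding NAC domain at the N-terminal end and differ in a C-terminal region that regulates transcription. The family is named after petunia NAM, Arabidopsis ATAF and Arabidopsis CUC. NAM and CUC2 set the boundaries of shoot meristems and organs, ATAF factors are known from stress and defence, and other members act in lateral root formation, leaf senescence, wall thickening and the responses to drought and salt. Of the 62 members, 2 had a locus in the platform's annotation, NAC014 (261616_at) and AT1G19040 (259471_at). All others are therefore given by probe set with the relative that their description names, which is in most cases a likeness of sequence and not the identity of the gene.

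MAS5, the signal algorithm for these arrays, calls a probe set Present where its matched probes stand out from mismatched ones. Of the NAC members, 24 were Present on all 18 arrays, 27 on some and 11 on none, with 32 to 42 of 62 Present on any 1 array. Over all probe sets, 63.3% to 73.6% were Present per array. A test needed a Present call on both arrays of 1 or more groups, which 43 NAC members had (69.4%, against 76.4% of all probe sets). As a check of the tissue, all 13 probe sets described as chlorophyll a/b-binding proteins were Present on all 18 arrays, and the probe set described as SCARECROW1, a root patterning factor, was Present on 17. Some of these tissue signals moved with the treatments. SCARECROW1 read 27.2 to 300.5 after heat shock and 162.4 to 191 after NaCl, against 558.3 to 738.7 at control (6 arrays each). The median chlorophyll a/b-binding signal was 20790.1 to 29698.1 after heat shock and 11848.7 to 25931 after NaCl, against 23537 to 36422.5 at control, and its 3 lowest values were those of NaCl 2 in OE, RD and WT. The median of 5 probe sets described with root hair was 81.8 to 192.8 after heat shock and 93 to 225.2 after NaCl, against 78.6 to 177.7 at control, so these overlapped. A listed root marker, AT1G12560 (259525_at), gave log2 differences with NaCl of -1.67 in OE (adjusted p = 0.0845), -1.97 in RD (adjusted p = 0.0403) and -3.65 in WT (adjusted p = 0.00156). Its NaCl arrays in RD and WT were not Present. The RD call was lost after quantile normalization and without the filter on Present calls. The WT difference of AT1G12560 was -2.24 without WT NaCl 2 and -5.05 without WT NaCl 1. The part of these shifts in the NAC results was not tested. The array names fall into 2 series by prefix, and WT heat 1, WT NaCl 1 and OE NaCl 1 form the second one. Replicates of the groups that mix both series correlated at 0.917 for WT heat, 0.916 for WT NaCl and 0.934 for OE NaCl over tested probe sets, and those of the other groups at 0.948 to 0.973. Signals are compared between groups only within a probe set, since probe sets differ in brightness for the same amount of RNA. Where arrays of 2 groups do not overlap this is said. With 2 arrays per group it was common among the members, so it is not by itself read as a response.

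NaCl raised more NAC members than it lowered. In OE 13 of 43 tested members rose and 2 fell, in RD 14 rose and 1 fell, and in WT 11 rose and 2 fell (limma, Benjamini-Hochberg adjusted p under 0.05 over 17379 probe sets). Among all tested probe sets, 11.5% rose and 15% fell in OE (26.4% in either direction), 12% rose and 19.5% fell in RD (31.5%), and 12% rose and 18.3% fell in WT (30.3%). The members' total share of calls was thus near that of all probe sets, and the difference lay in the direction. The median log2 difference of the 43 members was 0.51 in OE, 0.33 in RD and 0.41 in WT, beside -0.13, -0.22 and -0.19 over all tested probe sets in OE, RD and WT. Called higher in each of the 3 genotypes were 10 members (23.3%, against 7.92% of all), and called lower in each was 1 (2.33%, against 10.3% of all). Of the 43, 3 passed the filter on Present calls through NaCl groups alone, and 1 of them, 260203_at, was among the rises in each genotype, and members that pass in this way have little room for a fall. The other 40 gave 12 rises in OE, 13 in RD and 10 in WT. Among these 40, 263584_at and 255022_at passed through heat shock and NaCl groups but through no control group. They too had little room for a fall, and 263584_at was a rise in each genotype and 255022_at in RD. The 1 fall called in each genotype, 247519_at, passed through heat shock and control groups but through no NaCl group. It had little room for a rise. Since the samples are whole seedlings, fewer cells of a type and less RNA per cell cannot be told apart.

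Heat shock called members in both directions. In OE 6 rose and 5 fell, in RD 6 rose and 2 fell, and in WT 6 rose and 6 fell. Of all tested probe sets, heat shock raised 6.44% and lowered 12.3% in OE (18.8% in all), raised 5.41% and lowered 9.41% in RD (14.8%), and raised 6.7% and lowered 13.3% in WT (20%). Median log2 differences of the members were -0.53 in OE, -0.06 in RD and -0.37 in WT, beside -0.29, -0.27 and -0.29 over all tested probe sets in OE, RD and WT. Quantile normalization moved that shift of all probe sets to -0.13 in OE, -0.10 in RD and -0.13 in WT, and the members' own medians to -0.23 in OE, 0.28 in RD and -0.17 in WT, with the sign turned in RD. The share of rises among all calls changed to 51.6% in place of 34.4% in OE, 55.1% in place of 36.5% in RD, and 49.5% in place of 33.6% in WT. The members' calls under it were 6 higher and 2 lower in OE, 7 and 1 in RD, and 7 and 3 in WT (against 6 and 5, 6 and 2, and 6 and 6 on the deposited scale), which left fewer falls and as many or more rises. Called higher by heat shock in each genotype were 5 members (11.6%, against 4.15% of all), and called lower in each were 2 (4.65%, against 4.14% of all). Among the falls, 262096_at (each genotype) and 261393_at (OE) passed the filter through NaCl and control groups but no heat shock group. They had little room for a rise. 255022_at, a rise in RD, passed through no control group and had little room for a fall. Heat shock and NaCl share the control arrays of each genotype, so the values of both are given side by side and their likeness is not used as a result.

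**Figure D1:**
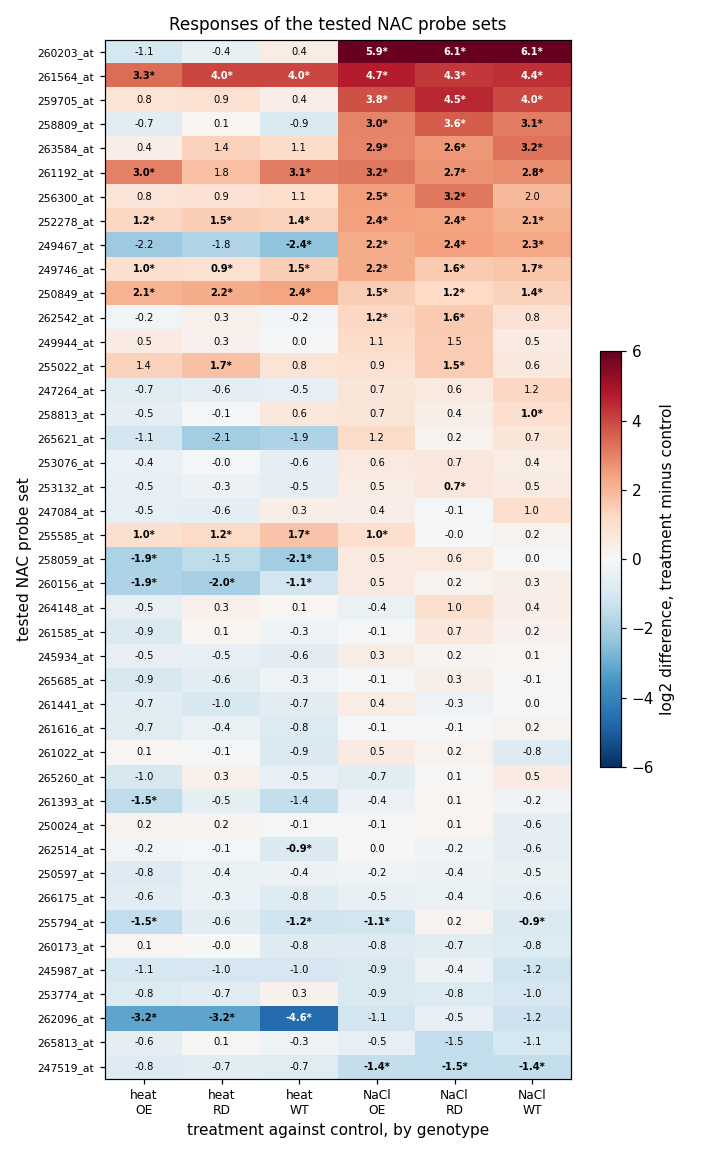
Heat map of the log2 difference (treatment minus control, colour scale in log2 units) of the 43 tested NAC probe sets, with heat shock in the 3 left columns, NaCl in the 3 right columns and genotypes in the order OE, RD, WT; an asterisk and bold type mark adjusted p under 0.05. The top rows are red in the NaCl columns, the first being 260203_at, Present on NaCl arrays alone, at 5.95 in OE, 6.07 in RD and 6.12 in WT, while the blue heat shock cells of 262096_at reach -4.63 in WT.

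The tested relatives of NAC2 rose after both treatments in every genotype. Of 4 such probe sets, 3 were tested, and each passed in all 6 comparisons, as did 261564_at, which is not described as like NAC2. Of all tested probe sets, 4.15% were called higher in each genotype by heat shock and 7.92% by NaCl. The share called by both is not given here, and 3 members allow no reading as a group. 250849_at carries the name NAC2 in its description, and its heat-shocked seedlings read 4579.4 and 4915.6 in OE, 5124 and 5443.8 in RD, and 5884.5 and 6111.7 in WT. After NaCl the signals of 250849_at were 2845.3 and 3512.6 in OE, 2452.8 and 2746.8 in RD, and 2157.2 and 4155.5 in WT. Controls of 250849_at read 1037.3 and 1238.6 in OE, 1069.2 and 1163.5 in RD, and 1156.3 and 1155.2 in WT. All treated arrays lay above all control arrays of their genotype, and within each genotype the heat-shocked arrays lay above the NaCl arrays. Heat shock raised it by 2.07 in OE (adjusted p = 9.51e-05), 2.24 in RD (adjusted p = 5.7e-05) and 2.38 in WT (adjusted p = 2.47e-05) on the log2 scale, with a standard error (SE) of 0.26 in each comparison. The NaCl differences were 1.48 in OE (adjusted p = 0.00125), 1.22 in RD (adjusted p = 0.00345) and 1.37 in WT (adjusted p = 0.00175).

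252278_at, a NAC2-like probe set, read 1393.4 and 1791.9 in OE, 1974.9 and 1361.4 in RD, and 1247.8 and 1749.1 in WT after NaCl. Its signals were 769.9 and 600.6 in OE, 888.5 and 857.6 in RD, and 710.5 and 1053.2 in WT after heat shock. Controls of 252278_at read 328.4 and 255.9 in OE, 357.5 and 268.6 in RD, and 357.2 and 317.9 in WT. Here the NaCl arrays lay above the heat-shocked arrays of the same genotype, and both above the controls. NaCl raised it by 2.45 in OE (adjusted p = 5.19e-05), 2.40 in RD (adjusted p = 5.43e-05) and 2.13 in WT (adjusted p = 0.000148), with SE 0.28, and heat shock by 1.23 in OE (adjusted p = 0.00879), 1.49 in RD (adjusted p = 0.00324) and 1.36 in WT (adjusted p = 0.00436). In OE the heat shock call was lost without OE heat 1 or OE control 2 (highest adjusted p = 0.0881).

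The other tested relative of NAC2, 249746_at, gave 720.1 and 1052 in OE, 668.8 and 702.8 in RD, and 684.1 and 891 in WT after NaCl. Heat shock left it at 311.9 and 432.2 in OE, 401.8 and 458.4 in RD, and 541.3 and 817.1 in WT. Controls of 249746_at read 205.3 and 173.3 in OE, 236.8 and 223.8 in RD, and 237.7 and 247.6 in WT. No treated array overlapped a control of its genotype. Log2 differences were 2.21 in OE (adjusted p = 7.64e-05), 1.57 in RD (adjusted p = 0.000799) and 1.69 in WT (adjusted p = 0.000525) for NaCl and 0.96 in OE (adjusted p = 0.0235), 0.90 in RD (adjusted p = 0.0375) and 1.45 in WT (adjusted p = 0.00188) for heat shock, with SE 0.27. The heat shock call in OE was lost without OE control 1, OE control 2 or OE heat 2, and that in RD without any 1 of its 4 arrays, up to adjusted p = 0.175 in OE and 0.179 in RD. The fourth relative, 245707_at, was Present on 2 of 18 arrays and was not tested.

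Relatives of the Arabidopsis NAC domain protein NAM held 1 member that rose strongly under both treatments. 261564_at read 4815.8 and 4045.2 in OE, 8200.5 and 5996.3 in RD, and 8790.5 and 6323 in WT after heat shock. With NaCl its signals were 8974.2 and 14790.1 in OE, 7498 and 9480.2 in RD, and 6419.8 and 14768.7 in WT. Controls of 261564_at read 401.6 and 473.5 in OE, 391.6 and 499.1 in RD, and 290.8 and 732.4 in WT. Every treated array was far above every control, while the control replicates of WT themselves differed widely. Heat shock raised it 10.1-fold in OE, 15.9-fold in RD and 16.2-fold in WT, or by 3.34 in OE (adjusted p = 0.000134), 3.99 in RD (adjusted p = 3.33e-05) and 4.01 in WT (adjusted p = 2.38e-05) on the log2 scale. NaCl raised it 26.4-fold in OE, 19.1-fold in RD and 21.1-fold in WT, a log2 difference of 4.72 in OE (adjusted p = 8.83e-06), 4.25 in RD (adjusted p = 1.71e-05) and 4.40 in WT (adjusted p = 1.34e-05) with SE 0.44. In WT the heat shock difference was 3.35 without WT control 1 and 4.68 without WT control 2, and the NaCl difference 3.73 without WT control 1 and 5.07 without WT control 2, 3.80 without WT NaCl 2 and 5.00 without WT NaCl 1. All 6 calls held under each of the 11 alternatives, with adjusted p no higher than 0.00321.

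256300_at, described as like the N-terminal part of the same protein, read 1508.4 and 7071.2 in OE, 4376.3 and 8210.3 in RD, and 741.3 and 6377.2 in WT after NaCl. Control signals of 256300_at were 422.7 and 763.4 in OE, 469.7 and 927.6 in RD, and 495.9 and 636.6 in WT. Its replicates disagreed: the arrays of the second series, WT NaCl 1 and OE NaCl 1, stood far below their partners. NaCl raised it by 2.52 (adjusted p = 0.0385) in OE and 3.18 (adjusted p = 0.0109) in RD with SE 0.83, and in WT the difference was 1.95 (adjusted p = 0.0918). The OE call was lost without OE control 1, OE control 2 or OE NaCl 2, and the RD call without RD control 1 or RD NaCl 2, with adjusted p up to 0.35 in OE and 0.0878 in RD. The OE difference was 1.41 without OE NaCl 2 and 3.64 without OE NaCl 1. After heat shock the differences of 0.76 in OE (adjusted p = 0.573), 0.86 in RD (adjusted p = 0.529) and 1.07 in WT (adjusted p = 0.399) did not pass. The third tested relative, 261585_at, passed in none of the 6 comparisons, with differences between -0.89 and 0.65.

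The probe set described as like ATAF1 and ATAF2, 263584_at, was Present on all 6 NaCl arrays and on no control array. It read 118 and 694.4 in OE, 147.9 and 404.1 in RD, and 113.5 and 778.8 in WT after NaCl. Controls of 263584_at read 46.5 and 30.9 in OE, 41.3 and 38.1 in RD, and 34.6 and 28.6 in WT. Arrays with NaCl lay above the controls in all genotypes, although replicates with NaCl were far apart in each. With no Present control, folds are bounds, taken against the higher of an array's lowest Present signal and the probe set's own signal. NaCl raised it at least 7.55-fold in OE, at least 6.16-fold in RD and at least 9.45-fold in WT, with log2 differences of 2.92 in OE (adjusted p = 0.0234), 2.62 in RD (adjusted p = 0.0329) and 3.24 in WT (adjusted p = 0.0124) and SE 0.86. Each call was lost without control 2 or NaCl 2 of its genotype, and in OE and RD also without control 1, up to adjusted p = 0.269 in OE, 0.229 in RD and 0.173 in WT. The bound was 3.11-fold without OE NaCl 2 and 18.3-fold without OE NaCl 1 in OE, 3.73-fold without RD NaCl 2 and 10.2-fold without RD NaCl 1 in RD, and 3.61-fold without WT NaCl 2 and 24.8-fold without WT NaCl 1 in WT. Its heat-shocked arrays read 47.1 and 53.6 in OE, 135.1 and 79.7 in RD, and 44.8 and 102.1 in WT, and no heat shock difference passed (adjusted p = 0.306 in RD was the lowest). The other ATAF relative, 265813_at, passed in no comparison.

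The relative of wheat GRAB1, a NAC protein known to bind the RepA protein of a geminivirus, responded to NaCl. 259705_at read 3324 and 8184.2 in OE, 8162.6 and 8033.7 in RD, and 2883.1 and 10477.3 in WT after NaCl. Signals of 259705_at were 678.7 and 624.3 in OE, 645.1 and 699.6 in RD, and 502.9 and 435.1 in WT after heat shock and 276 and 497.5 in OE, 304.5 and 419 in RD, and 292.6 and 421 in WT at control. Every NaCl array exceeded every other array of this probe set. The rise was 14.1-fold in OE, 22.7-fold in RD and 15.7-fold in WT, or 3.82 in OE (adjusted p = 0.000173), 4.50 in RD (adjusted p = 3.92e-05) and 3.97 in WT (adjusted p = 0.000114) on the log2 scale (SE 0.51), and it passed under all 11 alternatives in each genotype. Its size depended on single arrays, with log2 differences of 3.17 without OE NaCl 2 and 4.47 without OE NaCl 1, and of 3.04 without WT NaCl 2 and 4.90 without WT NaCl 1. Heat shock gave 0.81 in OE (adjusted p = 0.298), 0.91 in RD (adjusted p = 0.257) and 0.41 in WT (adjusted p = 0.611), none of which passed although the heat-shocked arrays lay above the controls.

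Relatives of petunia NAM formed the largest named group, with 15 members of which 11 were tested, and they moved in different ways. Each member was placed in 1 group only. Members such as 263584_at and 253774_at, whose descriptions name petunia NAM as well, were counted with ATAF and CUC2. NaCl raised 3 of the 11 in OE, 3 in RD and 4 in WT, and lowered 1 in each genotype, where 11.5% of all tested probe sets rose and 15% fell in OE, 12% and 19.5% in RD, and 12% and 18.3% in WT. Heat shock raised 1 in OE, 0 in RD and 1 in WT, and lowered 2 in OE, 1 in RD and 3 in WT, where 6.44% of all rose and 12.3% fell in OE, 5.41% and 9.41% in RD, and 6.7% and 13.3% in WT. Counts of 0 to 4 among 11 allow no reading against these shares.

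260203_at was Present on NaCl arrays alone and passed the filter only through the groups where it is high. It read 1787.5 and 5441.5 in OE, 5217.1 and 5144.6 in RD, and 1813.8 and 8464.4 in WT after NaCl, and all 6 of those arrays called it Present. At control it read 63.2 and 40.3 in OE, 124.5 and 47.7 in RD, and 78.3 and 40.3 in WT, and after heat shock 15.9 and 37.1 in OE, 66.4 and 49.5 in RD, and 63.6 and 90.7 in WT, with no Present call in either condition. NaCl raised it at least 61.8-fold in OE, at least 67.2-fold in RD and at least 69.8-fold in WT, with log2 differences of 5.95 in OE (adjusted p = 6.2e-05), 6.07 in RD (adjusted p = 4.77e-05) and 6.12 in WT (adjusted p = 4.9e-05) and SE 0.71. The bound was 35.4-fold without OE NaCl 2 and 108-fold without OE NaCl 1 in OE, 41.6-fold without RD control 2 and 109-fold without RD control 1 in RD, and 32.3-fold without WT NaCl 2 and 151-fold without WT NaCl 1 in WT. The calls held under the 10 alternatives that kept this probe set, with adjusted p no higher than 0.00158, and the filter on Present calls on at least 9 arrays removed it.

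258809_at read 1785.8 and 2895.4 in OE, 2709.1 and 2807.1 in RD, and 1716.7 and 2921 in WT after NaCl. Controls of 258809_at read 348.1 and 240.2 in OE, 232 and 212.9 in RD, and 294.4 and 236.9 in WT. Its NaCl arrays all exceeded all others, and the rise was 7.86-fold in OE, 12.4-fold in RD and 8.48-fold in WT. On the log2 scale this was 2.98 in OE (adjusted p = 7.37e-05), 3.63 in RD (adjusted p = 1.2e-05) and 3.08 in WT (adjusted p = 5.22e-05), with SE 0.36, and it passed under all 11 alternatives in each genotype. After heat shock 258809_at read 200 and 159.2 in OE, 175.2 and 322.7 in RD, and 112 and 170.0 in WT, and the differences of -0.70 in OE (adjusted p = 0.2), 0.10 in RD (adjusted p = 0.888) and -0.94 in WT (adjusted p = 0.0827) did not pass.

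261192_at rose after both treatments in OE and WT. It read 937.2 and 1056.8 in OE, 381.7 and 578.1 in RD, and 1019.2 and 887.7 in WT after heat shock. After NaCl the signals of 261192_at were 545.9 and 2169.2 in OE, 783.1 and 959.1 in RD, and 396.9 and 1537.8 in WT. Controls of 261192_at read 108.6 and 133.6 in OE, 136 and 131.6 in RD, and 85.3 and 146.7 in WT. Heat shock gave 3.05 in OE (adjusted p = 0.0032), 1.81 in RD (adjusted p = 0.0568) and 3.09 in WT (adjusted p = 0.00264) with SE 0.60, so the RD difference lay just outside the threshold while all its arrays lay above the controls. NaCl gave 3.18 in OE (adjusted p = 0.00195), 2.70 in RD (adjusted p = 0.00426) and 2.80 in WT (adjusted p = 0.00359), and the WT call was lost without WT NaCl 2 (adjusted p = 0.0531). The NaCl difference was 2.18 without OE NaCl 2 and 4.17 without OE NaCl 1, and 1.83 without WT NaCl 2 and 3.78 without WT NaCl 1.

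**Figure D2:**
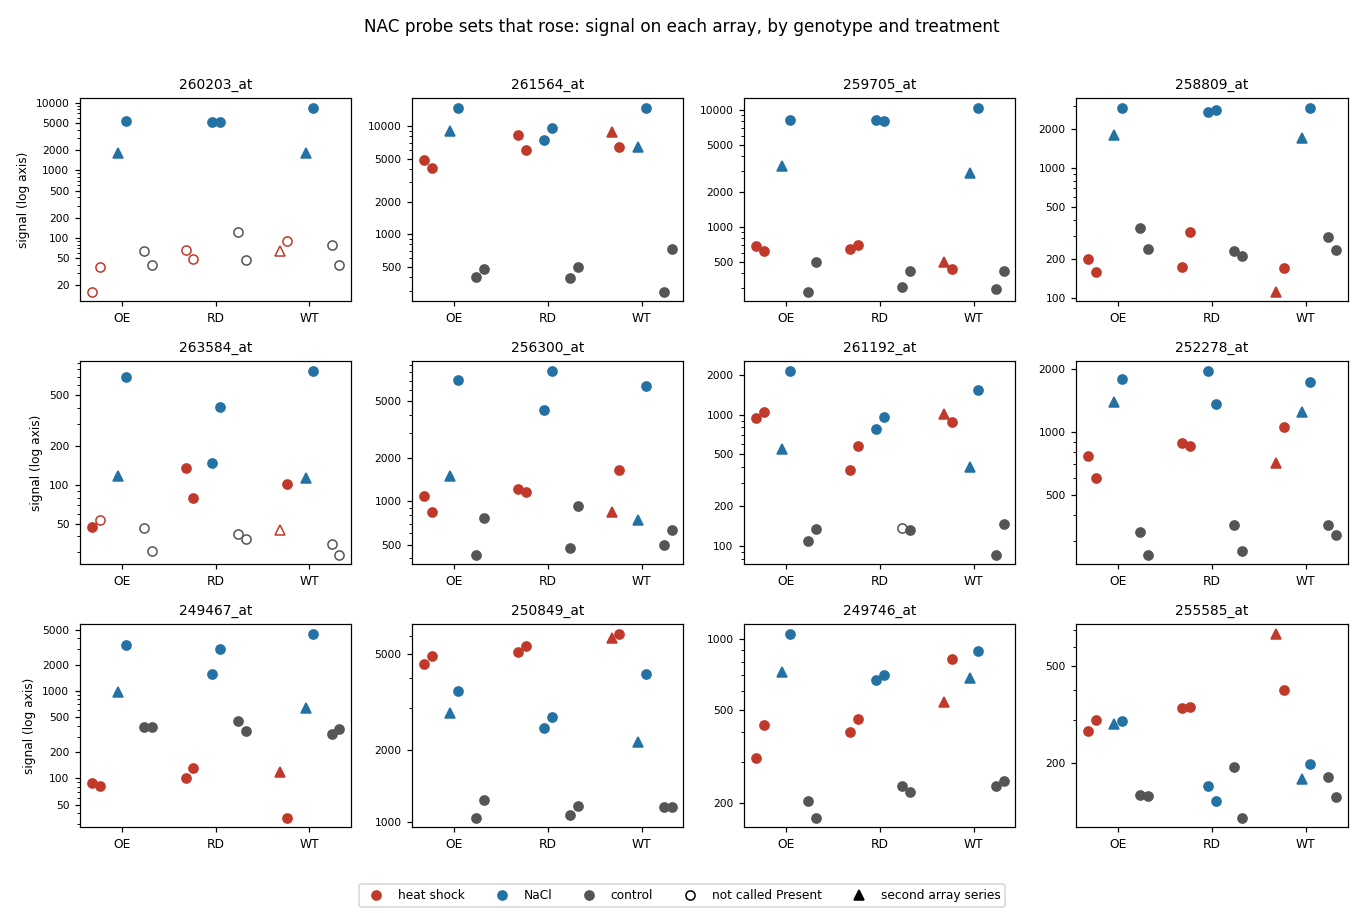
Signal (linear MAS5 units on a log axis) of 12 NAC probe sets on each of 18 arrays, by genotype and treatment; each point is 1 array, open symbols are arrays not called Present and triangles are the 3 arrays of the second array series. NaCl arrays of 260203_at, 259705_at and 258809_at stand clear of heat shock and control, heat-shocked arrays of 250849_at stand highest, and NaCl triangles lie below the circle of the same group in WT and OE.

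Members that fell after heat shock included one whose description calls it identical to Arabidopsis NAC1, which carries the auxin signal in lateral root formation. This probe set, 262096_at, read 30.6 and 36.7 in OE, 38.6 and 40.0 in RD, and 58 and 2.4 in WT after heat shock, with no Present call. It read 283.4 and 317.2 in OE, 373.6 and 334.2 in RD, and 305.7 and 280.4 in WT at control, Present on all 6 arrays. WT heat 1 and WT heat 2 differed more than any other pair of replicates of this probe set. Heat shock lowered it at least 8.95-fold in OE, at least 8.99-fold in RD and at least 13.2-fold in WT as bounds, with log2 differences of -3.16 in OE (adjusted p = 0.0274), -3.17 in RD (adjusted p = 0.0322) and -4.63 in WT (adjusted p = 0.00294) and SE 0.91. The OE and RD calls were lost after quantile normalization and without any 1 array of their comparison, up to adjusted p = 0.134 in OE and 0.145 in RD, while the WT call held under all 11 alternatives. The WT bound rested on WT heat 2, since it was 5.05-fold without WT heat 2 and 34.4-fold without WT heat 1, with log2 differences of -6.93 without WT heat 1 and -2.34 without WT heat 2. NaCl left it at 127.8 and 150.4 in OE, 231.2 and 272.9 in RD, and 113.8 and 138.4 in WT, and the differences of -1.11 in OE (adjusted p = 0.396), -0.49 in RD (adjusted p = 0.713) and -1.22 in WT (adjusted p = 0.332) did not pass. Of these NaCl arrays, 1 in OE, both in RD and 0 in WT called it Present, and those of OE and WT lay below their controls.

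260156_at, another relative of petunia NAM, fell after heat shock in all genotypes. It read 130.8 and 140.0 in OE, 94.4 and 107.5 in RD, and 239.2 and 172.2 in WT after heat shock. Controls of 260156_at read 532.7 and 458 in OE, 502.6 and 322.5 in RD, and 527.1 and 366.9 in WT. The heat-shocked arrays lay below all controls of their genotype. The log2 differences were -1.87 in OE (adjusted p = 0.00146), -2.0 in RD (adjusted p = 0.00108) and -1.12 in WT (adjusted p = 0.0277) with SE 0.33, and the WT call was lost after quantile normalization and without WT control 1 or WT heat 2 (highest adjusted p = 0.195). With NaCl it read 666.5 and 764 in OE, 340.7 and 653.7 in RD, and 488.4 and 628.8 in WT, and no NaCl difference passed.

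258059_at, also like petunia NAM, read 100.5 and 117.7 in OE, 106.7 and 172 in RD, and 162.6 and 49.2 in WT after heat shock. Controls of 258059_at read 444.9 and 372.1 in OE, 512.6 and 296 in RD, and 392.8 and 373.8 in WT. All heat-shocked arrays lay below the controls. It fell by 1.90 in OE (adjusted p = 0.0268), 1.52 in RD (adjusted p = 0.0763) and 2.10 in WT (adjusted p = 0.0154) on the log2 scale (SE 0.55), of which the RD value did not pass. The OE call was lost after quantile normalization and without any 1 array of the comparison, and the WT call when either WT control or WT heat 2 was left out. The WT difference was -2.96 without WT heat 1 and -1.24 without WT heat 2. NaCl gave 0.53 in OE (adjusted p = 0.505), 0.60 in RD (adjusted p = 0.426) and 0.04 in WT (adjusted p = 0.962), none of which passed. 262514_at, like petunia NAM too, was called lower after heat shock in WT alone (-0.86 ± 0.27, SE, adjusted p = 0.04), a call lost after quantile normalization, with the first array series alone and without any 1 of the 4 arrays. The difference between its responses in RD and WT was 0.79 (95% interval -0.03 to 1.62, adjusted p = 0.77), which did not pass.

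249467_at, a probe set like CUC2, lay on opposite sides of the controls under the 2 stresses. It read 89.2 and 80.9 in OE, 99.8 and 131.5 in RD, and 118.9 and 35.3 in WT after heat shock. After NaCl it read 976.3 and 3323.9 in OE, 1546.9 and 3028.1 in RD, and 633.5 and 4511.4 in WT. Controls of 249467_at read 383.5 and 388.3 in OE, 451.9 and 349.2 in RD, and 323.3 and 365.5 in WT. In every genotype the NaCl arrays lay above and the heat-shocked arrays below the controls. NaCl raised it by 2.22 in OE (adjusted p = 0.0473), 2.45 in RD (adjusted p = 0.0275) and 2.30 in WT (adjusted p = 0.0371) with SE 0.77, and each call was lost when control 1, control 2 or NaCl 2 of its genotype was left out, and the OE call also without the filter on dim probe sets, up to adjusted p = 0.359 in OE, 0.175 in RD and 0.439 in WT. The NaCl difference was 1.34 without OE NaCl 2 and 3.11 without OE NaCl 1, and 0.88 without WT NaCl 2 and 3.71 without WT NaCl 1. Heat shock gave -2.18 in OE (adjusted p = 0.0635), -1.79 in RD (adjusted p = 0.137) and -2.41 in WT (adjusted p = 0.041), of which the WT difference passed but was lost after quantile normalization, with the array series as a term, and when either WT control or WT heat 2 was left out. It was -3.28 without WT heat 1 and -1.53 without WT heat 2. The other tested CUC2 relative, 253774_at, passed in no comparison with control.

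247519_at, like petunia NAM, was the 1 member lowered by NaCl in each genotype. It passed the filter on Present calls through heat shock and control groups alone, which left little room for a rise with NaCl. It read 97.9 and 49.6 in OE, 22.2 and 27.2 in RD, and 41.7 and 54.7 in WT after NaCl. Controls of 247519_at read 164.2 and 212.1 in OE, 62.6 and 76.6 in RD, and 109.4 and 150.2 in WT. NaCl arrays lay below the controls of their genotype, and both RD arrays with NaCl were not Present. Log2 differences were -1.42 in OE (adjusted p = 0.0257), -1.49 in RD (adjusted p = 0.0173) and -1.42 in WT (adjusted p = 0.0226) with SE 0.43. Each call was lost without control 2 of its genotype, in OE also without OE control 1 or OE NaCl 2, in RD without RD NaCl 1 and in WT without either NaCl array, up to adjusted p = 0.244 in OE, 0.102 in RD and 0.152 in WT, and the WT call also after quantile normalization and with the first array series alone. After heat shock the differences of -0.79 in OE (adjusted p = 0.222), -0.68 in RD (adjusted p = 0.314) and -0.73 in WT (adjusted p = 0.253) did not pass.

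255794_at, described only as NAM-like, read 125.6 and 167.8 in OE, 122.2 and 100.5 in RD, and 105.4 and 115.8 in WT after heat shock. NaCl left it at 177.1 and 196.1 in OE, 164.2 and 227.5 in RD, and 126.8 and 158.1 in WT. Controls of 255794_at read 334.2 and 488 in OE, 145.2 and 197.4 in RD, and 229.4 and 288.1 in WT. In OE and WT all treated arrays lay below the controls, and in RD the NaCl arrays overlapped them. Heat shock gave -1.48 in OE (adjusted p = 0.00316), -0.61 in RD (adjusted p = 0.176) and -1.22 in WT (adjusted p = 0.00939) and NaCl gave -1.12 in OE (adjusted p = 0.0123), 0.19 in RD (adjusted p = 0.648) and -0.86 in WT (adjusted p = 0.0374), with SE 0.29. The WT call with NaCl was lost in 8 of 11 alternatives, among them quantile normalization and leaving out any 1 array of the comparison, the OE call with NaCl without OE NaCl 1, OE NaCl 2 or OE control 2, and the heat shock calls without OE control 2 in OE and, in WT, without WT control 2 or after quantile normalization. 261393_at, like rice OsNAC4, a factor linked to cell death in rice, fell after heat shock in OE (-1.5 ± 0.49, SE, adjusted p = 0.0458), a call lost in 6 of 11 alternatives. Its heat-shocked OE arrays were not Present, so the fall was at least 2.71-fold as a bound. This bound was 2.01-fold without OE heat 1 and 3.66-fold without OE heat 2.

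**Figure D3:**
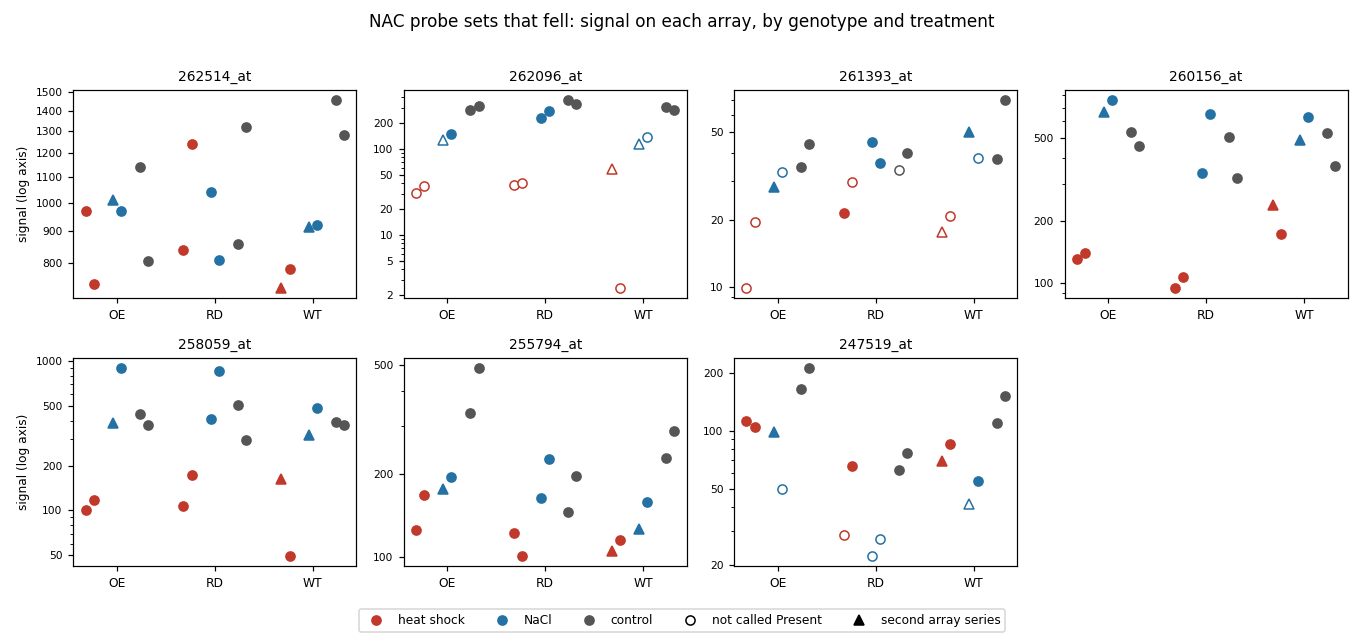
Signal (linear MAS5 units on a log axis) of 7 NAC probe sets called lower in at least 1 response on each of 18 arrays, by genotype and treatment; each point is 1 array, open symbols are arrays not called Present and triangles are the second array series. Heat-shocked arrays of 262096_at are all open, with WT heat 2 at 2.4, and those of 260156_at and 258059_at lie below the controls of their genotype.

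Other members moved less or in fewer genotypes. 255585_at, described as NAM-like, read 269.1 and 298.6 in OE, 336.3 and 340.2 in RD, and 679.5 and 397 in WT after heat shock. Controls of 255585_at read 146.5 and 145.4 in OE, 192.4 and 118.4 in RD, and 174.6 and 144.2 in WT. It rose in each genotype, by 0.96 in OE (adjusted p = 0.0324), 1.16 in RD (adjusted p = 0.0153) and 1.71 in WT (adjusted p = 0.000933) with SE 0.29, and the OE call was lost without any 1 of its 4 arrays and the RD call without RD heat 1, RD heat 2 or RD control 2 (adjusted p up to 0.144 in OE and 0.139 in RD). NaCl raised 255585_at in OE alone among the calls, at 1.0 in OE (adjusted p = 0.0201), -0.02 in RD (adjusted p = 0.97) and 0.21 in WT (adjusted p = 0.603), and the OE call was lost without any 1 of its 4 arrays (adjusted p up to 0.0991). The difference between its NaCl responses in OE and WT was 0.79 (95% interval -0.08 to 1.66, adjusted p = 1), which did not pass.

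The pair of members like nap, a factor of leaf senescence, were each called in RD. 253132_at read 274.2 and 311.5 in OE, 264.2 and 295.1 in RD, and 355.9 and 329 in WT after NaCl. Controls of 253132_at read 232.6 and 193.4 in OE, 171 and 173.4 in RD, and 265.8 and 218.8 in WT. Its NaCl arrays lay above the controls throughout, at 0.46 in OE (adjusted p = 0.15), 0.70 in RD (adjusted p = 0.0318) and 0.50 in WT (adjusted p = 0.108) with SE 0.23, and the RD value passed but was lost without the filter on dim probe sets and without any 1 of its 4 arrays (adjusted p up to 0.151). 255022_at was Present on 9 arrays, read 41.2 and 53.4 in OE, 34.9 and 38.6 in RD, and 30.1 and 47.1 in WT after heat shock and 14.2 and 22.3 in OE, 7 and 17.1 in RD, and 21 and 22 in WT at control. It rose in RD at least 2.59-fold after heat shock (1.75 ± 0.54, SE, adjusted p = 0.0437), a call lost without the filter on dim probe sets and without RD control 1, RD heat 1 or RD heat 2. The difference was 1.10 without RD control 1 and 2.39 without RD control 2. Its NaCl call in RD had no Present array in either group.

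262542_at, described as NAM-like, read 203.9 and 209 in OE, 305.8 and 132.9 in RD, and 148.2 and 177.4 in WT after NaCl. Controls of 262542_at read 87.5 and 88.3 in OE, 81.3 and 58.2 in RD, and 90.1 and 90.1 in WT. Log2 differences were 1.23 in OE (adjusted p = 0.0225), 1.55 in RD (adjusted p = 0.00556) and 0.85 in WT (adjusted p = 0.0908) with SE 0.36, so OE and RD passed. The OE call was lost without any 1 of its 4 arrays and with the first array series alone, and the RD call without RD NaCl 1 or RD control 2 (adjusted p up to 0.105 in OE and 0.0669 in RD), with a difference of 0.95 without RD NaCl 1 and 2.15 without RD NaCl 2. 258813_at, like petunia NAM, rose after NaCl in WT by 1.02 ± 0.29 (SE, adjusted p = 0.0172), and the OE and RD differences of 0.72 and 0.36 did not pass. The WT call was lost without WT control 2 or WT NaCl 2 (adjusted p up to 0.146).

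The remaining 20 tested members passed in none of the 6 comparisons with control, and their log2 differences ran from -2.11 to 1.53. The share of all tested probe sets that passed in none is not given here, so this count is not read as a trait of the family. Of the 20 members, 9 were Present on all 18 arrays. The lowest adjusted p among them was 0.0556, for NAC014 (261616_at), similar to a Medicago NAC1, which read 163.3 and 185.2 in OE, 131.9 and 218.9 in RD, and 121.4 and 146.8 in WT after heat shock. Controls of 261616_at read 276.9 and 293.4 in OE, 223.9 and 231 in RD, and 238 and 239.2 in WT. Its heat-shocked arrays lay below the controls in each genotype, at -0.71 in OE (adjusted p = 0.101), -0.42 in RD (adjusted p = 0.357) and -0.84 in WT (adjusted p = 0.0556) with SE 0.29. The WT heat arrays were not Present. In WT 261616_at was called higher with NaCl than with heat shock, at least 2.04-fold as a bound. That call was lost in 3 of 11 alternatives, and those of 245934_at, in the same direction, in 4 of 11 in OE and 3 of 11 in WT. The other Medicago NAC1 relative, 245934_at, and the relative of tomato SENU5, a senescence-related gene, 245987_at, were also in this group, and their differences lay between -0.64 and 0.33 and between -1.22 and -0.35. The 19 members that were not tested read 0.4 to 104.2, and 11 of them were never Present while 8 were Present on 1 to 5 arrays. They included the relative of tobacco TERN, an elicitor-responsive gene (252681_at, 0.4 to 36.1), and 4 relatives of petunia NAM.

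The direct comparison of NaCl with heat shock placed more members higher with NaCl. In OE 15 members were higher and 0 lower, in RD 13 higher and 2 lower, and in WT 11 higher and 3 lower (limma, adjusted p under 0.05). Of all tested probe sets, 19.7% were higher and 13.9% lower in OE (33.6% in all), 17.9% higher and 16.3% lower in RD (34.2%), and 16.4% higher and 11.7% lower in WT (28.1%). Median log2 differences of the members, NaCl minus heat shock, were 0.88 in OE, 0.68 in RD and 0.52 in WT, beside 0.13, 0.03 and 0.07 over all tested probe sets in OE, RD and WT. At an unadjusted p under 0.05, 21 of 43 members differed in OE, 19 in RD and 21 in WT, where 43.8% of all tested probe sets did in OE, 44.4% in RD and 40.1% in WT. Of the 3 members tested through NaCl groups alone, 1 in OE, 1 in RD and 2 in WT were among the higher ones. The NAC1 probe set 262096_at was also among the higher ones in RD and WT. In WT it had no Present array in either group, and its difference was 1.11 without WT heat 2 and 5.71 without WT heat 1. In RD it was higher at least 6.39-fold as a bound, a call lost after quantile normalization. The treatments also differed in length, 6 h for NaCl and 1 h for heat shock, and the kind of stress and its length cannot be told apart.

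260203_at, not Present on any heat-shocked array, was higher with NaCl at least 128-fold in OE, at least 90.4-fold in RD and at least 51.6-fold in WT as bounds, which without 1 array were 73.6-fold without OE NaCl 2 and 224-fold without OE NaCl 1, 84.1-fold without OE heat 1 and 196-fold without OE heat 2, and 23.9-fold without WT NaCl 2 and 111-fold without WT NaCl 1. 249467_at, a CUC2 relative, differed by 4.41 in OE (adjusted p = 0.000789), 4.24 in RD (adjusted p = 0.00102) and 4.71 in WT (adjusted p = 0.000599) with SE 0.77, and it held under all 11 alternatives in each genotype although its calls against control did not. The difference was 3.52 without OE NaCl 2 and 5.29 without OE NaCl 1, and 3.29 without WT NaCl 2 and 6.12 without WT NaCl 1. It was 3.83 without WT heat 2 and 5.58 without WT heat 1. 258809_at gave 3.67 in OE (adjusted p = 1e-05), 3.54 in RD (adjusted p = 1.17e-05) and 4.02 in WT (adjusted p = 5.1e-06), and 259705_at gave 3.00 in OE (adjusted p = 0.000653), 3.59 in RD (adjusted p = 0.000171) and 3.55 in WT (adjusted p = 0.000244). The difference of 259705_at was 2.35 without OE NaCl 2 and 3.65 without OE NaCl 1, and 2.62 without WT NaCl 2 and 4.49 without WT NaCl 1. Among members that fell after heat shock, 260156_at was higher with NaCl by 2.40 in OE (adjusted p = 0.000122), 2.23 in RD (adjusted p = 0.000217) and 1.45 in WT (adjusted p = 0.00513) and 258059_at by 2.44 in OE (adjusted p = 0.00411), 2.13 in RD (adjusted p = 0.00871) and 2.14 in WT (adjusted p = 0.0103). Those of 260156_at held under all 11 alternatives, and those of 258059_at were lost without OE NaCl 2 in OE, without RD heat 1 or RD NaCl 2 in RD, and without WT heat 2 or WT NaCl 2 in WT (highest adjusted p = 0.114, in WT). The difference of 258059_at was 1.82 without OE NaCl 2 and 3.06 without OE NaCl 1, and 1.28 without WT heat 2 and 3.00 without WT heat 1. The nap relative 253132_at was higher with NaCl in each genotype, by 0.98 in OE (adjusted p = 0.00512), 1.04 in RD (adjusted p = 0.00347) and 1.05 in WT (adjusted p = 0.00391), although it passed against control in RD alone, and the OE difference was lost without OE heat 1 (adjusted p = 0.0524).

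Fewer members were lower with NaCl than with heat shock. 250849_at, described as NAC2, gave -0.59 in OE (adjusted p = 0.0995), -1.02 in RD (adjusted p = 0.0083) and -1.0 in WT (adjusted p = 0.0116), so the difference passed in RD and WT, and it was lost without RD NaCl 1 or RD heat 2 in RD, and without WT NaCl 1 or with the first array series alone in WT. 255585_at gave 0.05 in OE (adjusted p = 0.92), -1.18 in RD (adjusted p = 0.00637) and -1.5 in WT (adjusted p = 0.00179), passing in RD and WT, and the WT call was lost with the first array series alone (adjusted p = 0.0504). 253774_at, like CUC2, was lower with NaCl in WT, at -1.26 ± 0.42 (SE, adjusted p = 0.039), a call lost without the filter on dim probe sets, with the first array series alone and without any 1 of its 4 arrays. For the relatives of Arabidopsis NAM and NAC2 that rose under both stresses, the difference was 1.38 in OE (adjusted p = 0.026), 0.27 in RD (adjusted p = 0.676) and 0.39 in WT (adjusted p = 0.548) for 261564_at. It was 1.22 in OE (adjusted p = 0.00529), 0.91 in RD (adjusted p = 0.0242) and 0.77 in WT (adjusted p = 0.0572) for 252278_at and 1.25 in OE (adjusted p = 0.00317), 0.68 in RD (adjusted p = 0.0659) and 0.23 in WT (adjusted p = 0.556) for 249746_at. The OE difference of 261564_at was lost without OE heat 1, OE heat 2 or OE NaCl 2 (adjusted p up to 0.188). That of 252278_at was lost in OE without OE heat 2 or OE NaCl 2, and in RD without RD heat 1, RD heat 2 or RD NaCl 1 (adjusted p up to 0.0545 in OE and 0.177 in RD).

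The comparison across genotypes asks how overexpression or a dominant-negative form of HSFA6b bears on each response. No NAC member passed in any of the 6 differences of responses or in the 2 comparisons of untreated genotypes (limma, adjusted p under 0.05 over all tested probe sets). Few probe sets of any kind did: 0.0115% of all tested for the heat shock response of OE against WT, 0.00575% for RD against WT and 0.00575% for RD against OE. For the NaCl response the shares were 0% for OE against WT, 0.0173% for RD against WT and 0.023% for RD against OE. At control they were 0.0173% for OE against WT and 0.046% for RD against WT. Members with an unadjusted p under 0.05 numbered 1, 0 and 1 of 43 for the heat shock responses of OE against WT, RD against WT and RD against OE, where 6.16%, 6.36% and 3.53% of all tested probe sets had such a p. For the NaCl responses in the same order they numbered 2, 1 and 3 (1.1%, 2.87% and 4.35% of all), and at control 3 for OE against WT (0.915% of all) and 2 for RD against WT (3.69% of all).

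The intervals were wide, so these counts do not show that the genotypes respond alike. Over the 23 members called in any response, the 95% interval of a difference of responses reached from 0.69 to 2.77 log2 units to either side, with a median of 1.30. Differences of the heat shock response among these 23 ran from -1.49 to 1.47 for OE minus WT and from -1.28 to 1.46 for RD minus WT. Those of the NaCl response ran from -0.32 to 0.79 for OE minus WT and from -0.66 to 1.23 for RD minus WT. For 261564_at the heat shock response differed by -0.67 (95% interval -2.01 to 0.66, adjusted p = 0.91) between OE and WT and by -0.03 (95% interval -1.36 to 1.30, adjusted p = 0.995) between RD and WT. For 260203_at the NaCl response differed by -0.17 (95% interval -2.32 to 1.97, adjusted p = 1) between OE and WT and by -0.05 (95% interval -2.20 to 2.09, adjusted p = 1) between RD and WT. For 250849_at, described as NAC2, the heat shock response differed by -0.31 (95% interval -1.10 to 0.48, adjusted p = 0.929) between OE and WT.

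The smallest unadjusted p for the heat shock response belonged to 258813_at, which read 72.5 and 95.8 in OE, 97.1 and 110.5 in RD, and 126.9 and 140.6 in WT after heat shock. Controls of 258813_at read 130.5 and 110.9 in OE, 106.8 and 111.6 in RD, and 96.6 and 76.5 in WT. Its response differed by -1.17 (95% interval -2.05 to -0.29, adjusted p = 0.771) between OE and WT. In OE the heat-shocked arrays lay below the controls and in WT above them, but neither response passed. Such separation of 2 arrays from 2 others was common among the members and is not read as a response. For the NaCl response it was 255794_at, at 1.31 (95% interval 0.43 to 2.19, adjusted p = 0.862) between RD and OE and 1.05 (95% interval 0.17 to 1.93, adjusted p = 1) between RD and WT. Its control levels enter these differences. At control 255794_at stood at 0.65 (95% interval 0.03 to 1.27) for OE minus WT and at -0.60 (95% interval -1.22 to 0.02) for RD minus WT, neither of which passed.

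The NAC1 probe set was the 1 member whose genotype difference depended on the arrays used. Its heat shock response differed by 1.47 (95% interval -1.30 to 4.24, adjusted p = 0.906) between OE and WT and by 1.46 (95% interval -1.30 to 4.23, adjusted p = 0.846) between RD and WT. Without WT heat 1, which leaves the single WT array with a signal of 2.4, the same differences were 3.77 ± 0.39 (SE, adjusted p = 0.00531) and 3.76 ± 0.39 (SE, adjusted p = 0.00315), and the lone array is then assumed to vary like those of other groups. No heat-shocked array of any genotype called it Present, so these values compare signals within the background.

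**Figure D4:**
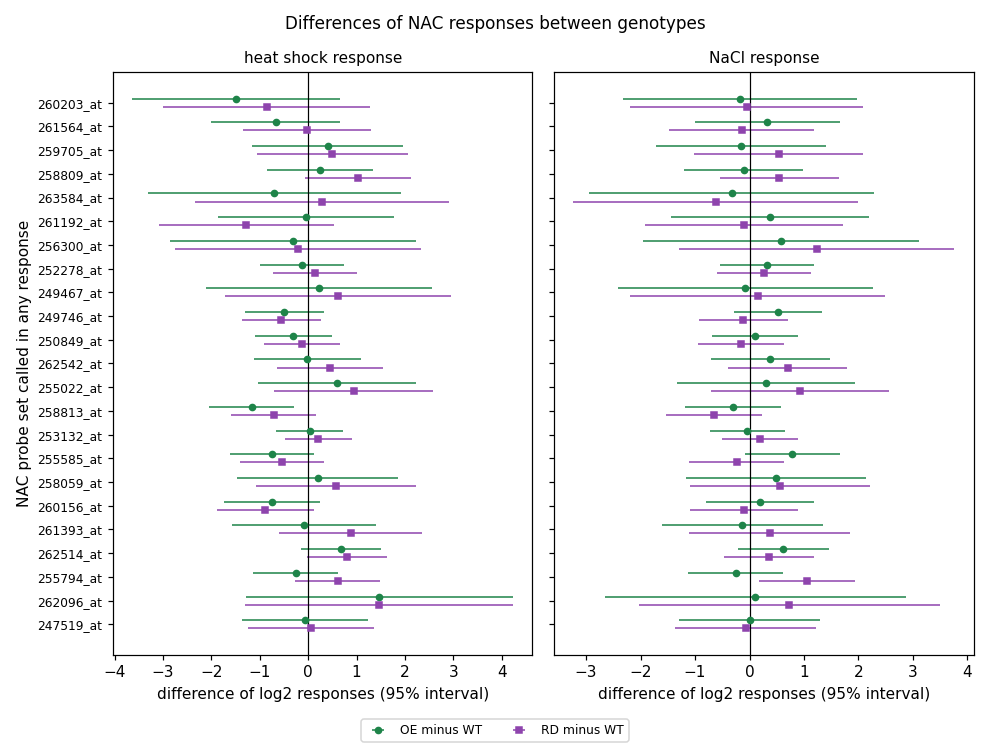
Difference of log2 responses between genotypes (OE minus WT in green circles, RD minus WT in purple squares, with 95% intervals) for the 23 NAC probe sets called in any response, with heat shock in the left panel and NaCl in the right. Half-widths of the intervals run from 0.69 to 2.77 with a median of 1.30, and those of 258813_at (heat shock, OE minus WT) and 255794_at (NaCl, RD minus WT) are the only ones of the 4 sets shown that exclude 0.

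Among members that rose with NaCl, the arrays of the second series read lower than their partners. In WT all 11 members called higher had the lower signal on replicate 1 (second series), with a median log2 ratio of replicate 1 to replicate 2 of -1.20. In OE this held for all 13, at a median of -0.72. In RD, where both NaCl arrays belong to the first series, 9 of 14 had the lower signal on replicate 1, at a median of -0.12. The same counts over all probe sets raised by NaCl are not given here, so these are not read as a trait of NAC members. The chlorophyll a/b-binding median was 25931 on OE NaCl 1 and 11848.7 on OE NaCl 2, 23338.3 on RD NaCl 1 and 14990.1 on RD NaCl 2, and 24197.4 on WT NaCl 1 and 14047.9 on WT NaCl 2, so it was lower on replicate 2 in RD as well, and its part in these ratios was not tested. Replicate, array series and RNA preparation cannot be told apart in these groups.

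With arrays of the first series alone, 15 members in place of 8 were called after heat shock in RD, 9 of them higher in place of 6. All RD control and heat-shocked arrays belong to the first series, so their differences stayed the same. Only the estimate of spread and the adjustment changed, and the share of all probe sets called under this setting is not given here.

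Among the 7 probe sets matched by letters alone, 6 were tested, and 262635_at, described as 4-hydroxyphenylpyruvate dioxygenase, rose with NaCl in each genotype by 2.18 in OE (adjusted p = 0.00352), 2.60 in RD (adjusted p = 0.000905) and 2.33 in WT (adjusted p = 0.00201), of which the OE call was lost without OE NaCl 2 (adjusted p = 0.0533). Its NaCl difference was 1.58 without OE NaCl 2 and 2.77 without OE NaCl 1, and 1.5 without WT NaCl 2 and 3.15 without WT NaCl 1. The others went both ways with NaCl. 267489_s_at rose in each genotype and 247492_at in OE and RD. 247654_at, described as ribosomal protein S15a, fell in each genotype, by 2.07 in WT (adjusted p = 0.000588). 252566_at, described likewise, fell in OE and WT, calls lost without the filter on dim probe sets. A further 8 probe sets described as NAC, CUC2, GRAB1, OsNAC or SENU5 proteins fell outside the wording of the rule, and 1 of them was tested. 247351_at, singled out after its values were seen and described with the spelling NAC-domain, read 14408.8 and 15727 in OE, 17566.4 and 16575.9 in RD, and 14156.7 and 17969.1 in WT after NaCl. Its control signals were 681.5 and 679.7 in OE, 654.1 and 628.6 in RD, and 516.8 and 644.3 in WT, so the groups lay far apart. NaCl raised it by 4.47 in OE (adjusted p = 1.08e-08), 4.73 in RD (adjusted p = 9.9e-09) and 4.79 in WT (adjusted p = 4.24e-09) with SE 0.20. Of 16 loci listed as reported targets of NAC factors, 2 matched a probe set and 1 was tested, AT2G21640 (263515_at). It rose after heat shock in WT by 2.26 ± 0.46 (SE, adjusted p = 0.00348), with signals of 337.6 and 493.9 after heat shock, against 72.9 and 99.2 at control. The corresponding differences were 1.35 in OE (adjusted p = 0.0547) and 1.47 in RD (adjusted p = 0.0458), and the RD call was lost without the filter on dim probe sets and without any 1 of its 4 arrays (adjusted p up to 0.264). With NaCl AT2G21640 gave 1.25 in OE (adjusted p = 0.058), 1.83 in RD (adjusted p = 0.00845) and 2.27 in WT (adjusted p = 0.00255), and the RD call, lost without RD NaCl 1, stood at 1.11 without RD NaCl 1 and 2.55 without RD NaCl 2.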

How the data were processed

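Transcript levels were measured on 18 single-colour Affymetrix arrays, 2 per group. Per the submitters' processing notes the authors used MAS5, with no version named in the labels, and deposited an intensity (signal) per probe set on a linear scale. The authors also deposited a detection p-value and the Present, Marginal or Absent call made from it. The mean after trimming both ends lay between 500.0 and 500.1 on all arrays, which shows scaling before deposit, and the series table held the same signals. No genome build is named and no coordinates are given. Groups were taken from the labels.

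Signals were floored at 0.1 and taken to log2. Tested were 17379 probe sets, each Present on both arrays of 1 or more groups. limma 3.58.1 in R 4.3.3 (lmFit on 9 group means, eBayes with intensity trend, 9 residual and 4.76 prior degrees of freedom) gave 17 contrasts, with Benjamini-Hochberg adjustment within each and a threshold of 0.05. The p-values measure the spread between biological replicates as labelled. Arrays have no counting depth, so precision depends on their number and, for dim probe sets, on background. The fit was tested on simulated data. Tables and figures were made in Python 3.11.15 (numpy 2.4.6, pandas 2.3.3, matplotlib 3.10.9).

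Members and lists were chosen with earlier results of these data known. The rule for named members took, per treatment contrast, up to 8 rises and 6 falls past the threshold whose higher group was Present on both arrays; other members are named to account for the family. The planned lists by locus could not be applied, because the platform annotation matched 1 of 74 NAC loci (NAC014) and 1 of 15 marker loci. No sequences are printed. Alternatives were quantile normalization, a floor of 16, no filter, Present on at least 9 arrays, the array series as a term or the first series alone, a replicate block, and each array left out.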

Additional observations from a re-analysis of the deposited data

How the results depend on the processing

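Counts of called NAC members stayed within 1.5 times of the reported ones under quantile normalization, the floor of 16, both other filters and the array series as a term, in all 17 contrasts. With the first array series alone, heat shock in RD called 15 members (9 higher) in place of 8, with the RD arrays and differences unchanged. Counts also moved for the heat shock responses of OE against WT and of RD against WT, through the NAC1 probe set 262096_at. Its differences were then 3.77 for OE against WT and 3.76 for RD against WT, with 1 array left in WT heat.

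Replicate numbers were not taken to pair the samples. Deviations of same-numbered arrays correlated at -0.08 to 0.63 over 36 pairs of groups, and 11 of these, not all, were over 0.1, so part of the design shared deviations. With the replicate block, heat shock called 11 members in OE, 9 in RD and 13 in WT, NaCl called 15 in OE, 16 in RD and 14 in WT, NaCl against heat shock called 17 in OE, 16 in RD and 17 in WT, and the genotype contrasts called 0.

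Leaving out 1 array gave 4 to 8 calls for heat shock in OE, 4 to 5 in RD and 8 to 12 in WT. For NaCl it gave 8 to 13 in OE, 10 to 11 in RD and 8 to 13 in WT, and for NaCl against heat shock 9 to 16 in OE, 9 to 10 in RD and 10 to 13 in WT. The heat shock responses of OE against WT and of RD against WT ran from 0 to 1, with 1 call without WT heat 1 in each, and the other genotype contrasts ran from 0 to 0. Counts moved by over 1.5 times for heat shock in OE without OE control 1 (6), OE heat 1 (6) or OE control 2 (4), and for heat shock in RD without RD control 1 or 2 (5 each) or RD heat 1 or 2 (4 each). The same held for NaCl in WT without WT control 2 or WT NaCl 2 (8 each), and for NaCl in OE without OE control 1 (9), OE control 2 (8) or OE NaCl 2 (8). For NaCl against heat shock it held in OE without OE heat 1 or OE NaCl 2 (9 each), and in RD without RD heat 1, RD NaCl 1 or RD heat 2 (9 each). A group left with 1 array is assumed to vary like the others, and such fits have fewer arrays. The shares of all probe sets called in these fits and with the replicate block are not given here.

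Of 159 calls of single probe sets (members, look-alikes and listed loci), 84 were kept under every alternative run for them, and over 1737 such runs 245 lost the call and 0 reversed. With 2 arrays per group and dim signals near background for many members, differences of responses had 95% intervals of 1.30 log2 units to either side at the median.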
